A study of Mus musculus with 12 samples.

Results

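The 8 genes described here, Stra8, Mael, Taf7l, Tex13b, Usp26, Dazl, Ddx4 and Tex14, are best known from germ cells, and they were read in mouse cells that are not a germ line. They were taken by name from the deposited table, as the rows whose RefSeq identifier maps to these symbols, and make up 8 of its 19708 entries. All 8 passed a filter on low levels that left 12704 genes for testing, Usp26 only through its libraries of wild-type stem cells. They were chosen by their levels in Mettl3 knockout against wild-type cells, in these same libraries, so those differences are given as a description, with no test.

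The cells were of the C57BL/6 strain. They were embryonic stem cells, here ESCs, or embryoid bodies, here EBs, the aggregates that ESCs form when they differentiate in suspension. Each was either wild type, WT, or a knockout, KO, of Mettl3, which encodes the catalytic subunit of the m6A mRNA methyltransferase. ESCs were kept in serum-free N2B27 medium with LIF and the 2 inhibitors of the 2i condition, and EBs grew in serum medium on non-adherent plates for a number of days that the labels do not resolve by sample. RNA 3′ ends were sequenced 0, 4 and 8 h after actinomycin, which halts transcription, with 1 library for each genotype, cell type and time, 12 in all. Nothing in the labels tells what was removed from Mettl3, whether a KO line is 1 clone, or whether the 3 times of a condition share a culture, so errors measure only the scatter between these libraries.

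Germ-line genes are kept silent in most cells of the body by promoter DNA methylation and by repressor complexes such as the PRC1.6 form of Polycomb, which contains MGA, MAX, E2F6 and PCGF6. ESCs and early embryos are a partial exception, since their DNA is lowly methylated and some germ-line transcripts escape. Stra8 responds to retinoic acid and is needed for germ cells to enter meiosis, Mael acts in the piRNA pathway that restrains transposons, and Dazl and Ddx4 encode RNA-binding proteins of germ cells.

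The main pattern was a contrast between the cell types. In ESCs, 7 of the 8 genes were lower in KO than in WT at all 3 times, the exception being Tex14 at 0 h, and for Stra8, Taf7l, Tex13b, Usp26 and Dazl every KO library lay below every WT library. In EBs the pattern was not seen: Stra8 and Dazl were higher in each KO library than in any WT library, and the other 6 overlapped between genotypes. Over all tested genes, 8.12% had all KO libraries below all WT libraries in ESCs and 15.6% were lower at each time, while 9.58% had all KO libraries above in EBs. Because the genes were chosen for these differences, nothing is read from the comparison with those shares.

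The deposited values are normalized signal, called levels here, and they rest on few reads. Inferred from the spacing of the values, libraries hold 208841 (WT EBs at 8 h) to 666800 (KO EBs at 0 h) read equivalents, and 1 read is worth a level of 10.6 to 32.7. A level of 0 allows up to 3 reads, which is a level of 75.4 to 98.2 in KO ESCs and 44.1 to 52.8 in WT EBs. Column totals were not equal between libraries, 3673848 to 11086748, so 3 other scalings were tried. In time order, 0 then 4 then 8 h, the targeted gene Mettl3 stood at 251, 64.8, 113 in WT ESCs, 98.1, 65.4, 41.8 in KO ESCs, 175, 86.0, 77.4 in WT EBs and 16.8, 40.7, 83.9 in KO EBs. Levels are given in this order from here on. Its KO libraries were the lower ones at 0 h in both cell types, and the genotypes overlapped at the later times. A 3′ tag outside a deleted stretch would not report the deletion.

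**Figure D1:**
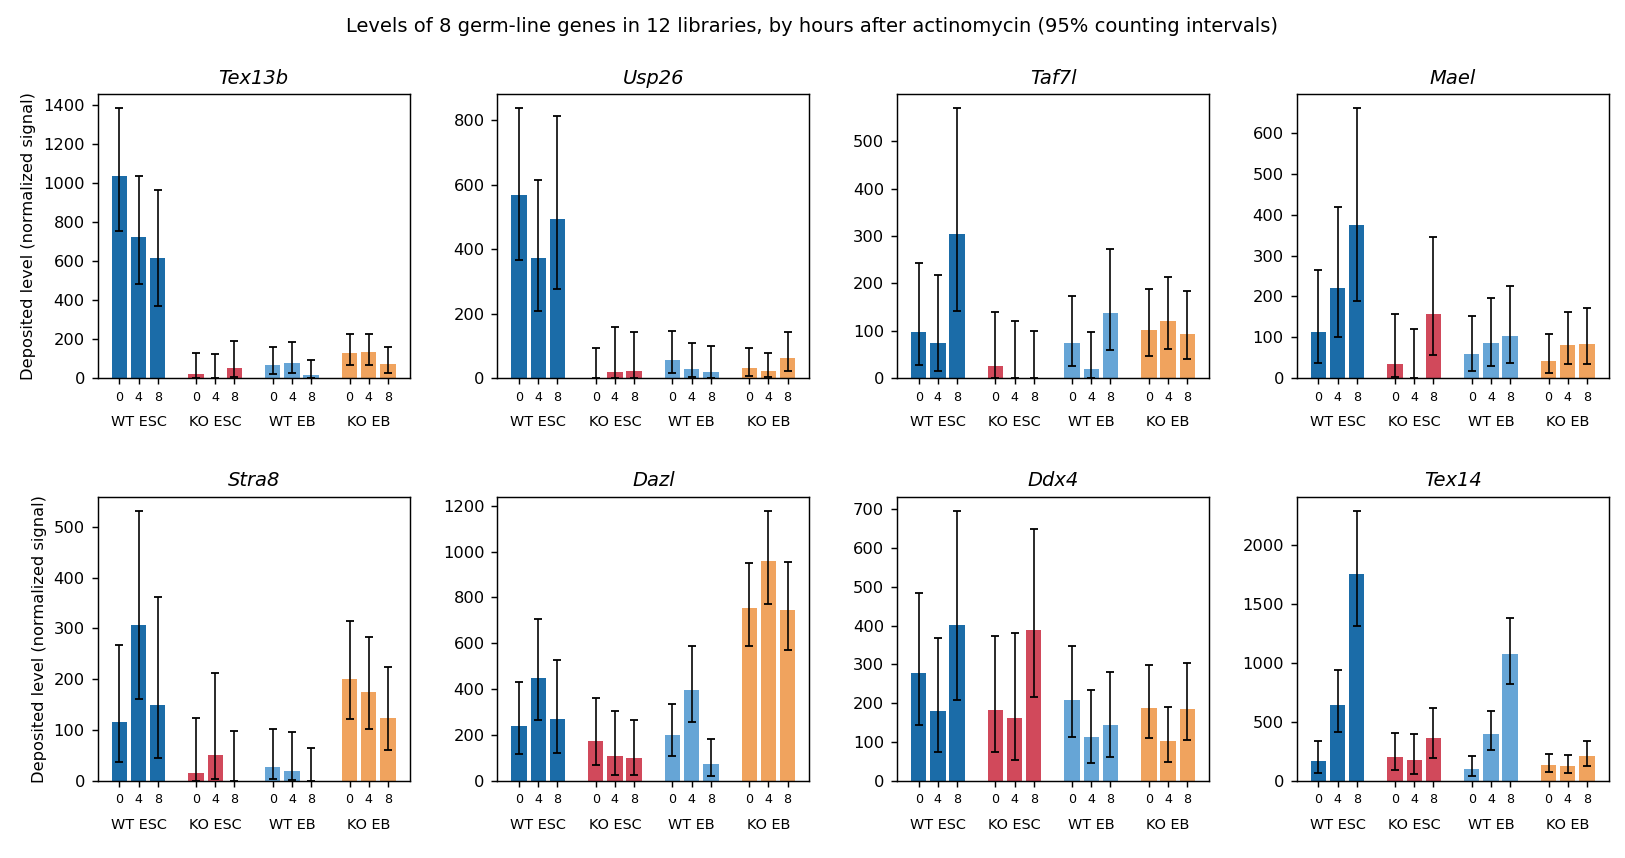
Deposited level of each of the 8 genes in every library, 1 bar per library in order of 0, 4 and 8 h after actinomycin, with exact Poisson 95% intervals on inferred read equivalents that cover counting error only. Tex13b and Usp26 stand at 373 or more in each WT ESC library and at 131 or less in the other 9, and Dazl at 745 or more in each KO EB library.

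Stra8 and Taf7l act on transcription. Stra8 (NM_009292, GRCm38 chr6:34920163-34939344) is switched on by retinoic acid before meiosis. Its level was 115, 307, 149 in WT ESCs against 16.1, 51.0, 0 in KO ESCs. In EBs the order turned: WT stood at 26.5, 20.0 and 0, and KO at 201, 175 and 124. The genotypes did not overlap in either cell type, and KO EBs lay within the range of WT ESCs. On the scale of log2(level + 8.58), which understates differences of low genes, KO minus WT was -2.98 ± 0.68 (SE) in ESCs and 3.07 ± 0.68 in EBs as a mean over the 3 times. Each KO ESC level comes from less than 2 read equivalents, against 10.4 to 18.9 in KO EBs, so the height in KO EBs is the better measured of the pair.

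Taf7l (NM_028958, chrX:134460116-134476505) encodes a germ-cell-enriched paralog of TAF7, a subunit of the general transcription factor TFIID. It stood at 97.3, 74.2 and 304 in WT ESCs and at 25.1, 0 and 0 in KO ESCs, where 1 read equivalent was found over the 3 libraries. In EBs the genotypes overlapped, at 74.7, 20.0 and 138 in WT and 101, 120 and 92.5 in KO. The difference was -3.37 ± 0.69 in ESCs and 0.68 ± 0.69 in EBs, the latter within its error. Its ESC value depended on the constant added before taking logs, from -4.73 to -2.04. The broadly expressed paralog Taf7 did not pass the test in either cell type (log2 difference 0.49 ± 0.26 in ESCs and 0.67 ± 0.26 in EBs, adjusted p = 0.254 and 0.147).

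Mael, Dazl and Ddx4 work on RNA. Mael (NM_175296, chr1:166201385-166238744) was at 112, 220 and 374 in WT ESCs and at 35.2, 0 and 158 in KO ESCs. The KO library at 8 h lay above the WT library at 0 h, so the genotypes overlapped although KO was lower at each time. The ESC difference of -2.47 ± 0.73 hung on the 4 h library of KO ESCs: it was -1.36 without that library and -4.68 without the 0 h or the 8 h library of KO ESCs. In EBs WT was at 60.0, 86.3 and 102 and KO at 42.2, 81.4 and 83.7, a difference of -0.26 ± 0.73.

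Dazl (NM_010021, chr17:50279393-50293620) encodes a regulator of translation in germ cells. It was at 237, 447 and 272 in WT ESCs and 174, 110 and 101 in KO ESCs, without overlap. In EBs it was at 199, 396 and 72.1 in WT and at 754, 959 and 745 in KO, again without overlap and with at least 62.5 read equivalents in each KO EB library. Those KO EB levels were higher than any other Dazl level in the series. KO minus WT was -1.24 ± 0.44 in ESCs, where 0 h alone gave only -0.43, and 2.12 ± 0.44 in EBs.

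Ddx4 (NM_001145885, chr13:112598333-112652633), the mouse homolog of the fly germ-cell RNA helicase Vasa, was the member that differed least. It was at 279, 181 and 401 in WT ESCs, 183, 162 and 390 in KO ESCs, 207, 113 and 143 in WT EBs and 188, 102 and 186 in KO EBs. The genotypes overlapped in both cell types, and the difference was -0.26 ± 0.42 in ESCs and 0.03 ± 0.42 in EBs, each within its error. Its sign was positive in 2 of the 12 fits that leave out 1 library in ESCs, and negative under all 3 other scalings in EBs. The related helicase genes Ddx3x and Ddx3y gave -0.47 ± 0.22 and 1.15 ± 0.30 in ESCs, of which Ddx3y, on the Y chromosome, passed the test (adjusted p = 0.0186).

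Tex13b and Usp26 are X-linked genes first found in testis, and they had the largest differences of the 8. Tex13b (NM_031381, chrX:140808307-140813433) was at 1034, 721 and 614 in WT ESCs and at 18.6, 0 and 52.0 in KO ESCs. In EBs it was at 64.4, 77.3 and 13.0 in WT and 129, 131 and 72.5 in KO. The KO EB library was the higher at each time, yet the 8 h KO library lay below the 4 h WT library. KO minus WT was -5.01 ± 0.61 in ESCs and 1.18 ± 0.61 in EBs. The ESC value is limited by the low KO level, which sums to fewer than 3 read equivalents, and ran from -6.51 to -3.90 over the settings tried.

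Usp26 (NM_031388, chrX:51752667-51801233), which encodes a ubiquitin-specific protease, was at 567, 373 and 495 in WT ESCs and at 0, 19.6 and 22.5 in KO ESCs. It stayed low in EBs of both genotypes, at 55.6, 28.3 and 17.6 in WT and 31.0, 21.1 and 61.5 in KO. The difference was -4.61 ± 0.57 in ESCs, with a range of -6.07 to -3.42 over the settings, and 0.14 ± 0.57 in EBs. WT ESCs were thus the one condition with clear Usp26 signal. The Usp26 span is overlapped by the lncRNA gene Gm35727, and the sources used here do not say how overlapping genes were counted.

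Tex14 (NM_031386, chr11:87405013-87555823) encodes a protein of the bridges that join dividing germ cells. It was at 164, 639 and 1754 in WT ESCs and 205, 172 and 364 in KO ESCs, and at 103, 401 and 1077 in WT EBs and 134, 124 and 212 in KO EBs. The genotypes were close at 0 h and apart at 4 and 8 h, in the same way in both cell types. KO minus WT was accordingly 0.30 and 0.36 at 0 h and -2.24 and -2.30 at 8 h in ESCs and EBs.

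**Figure D2:**
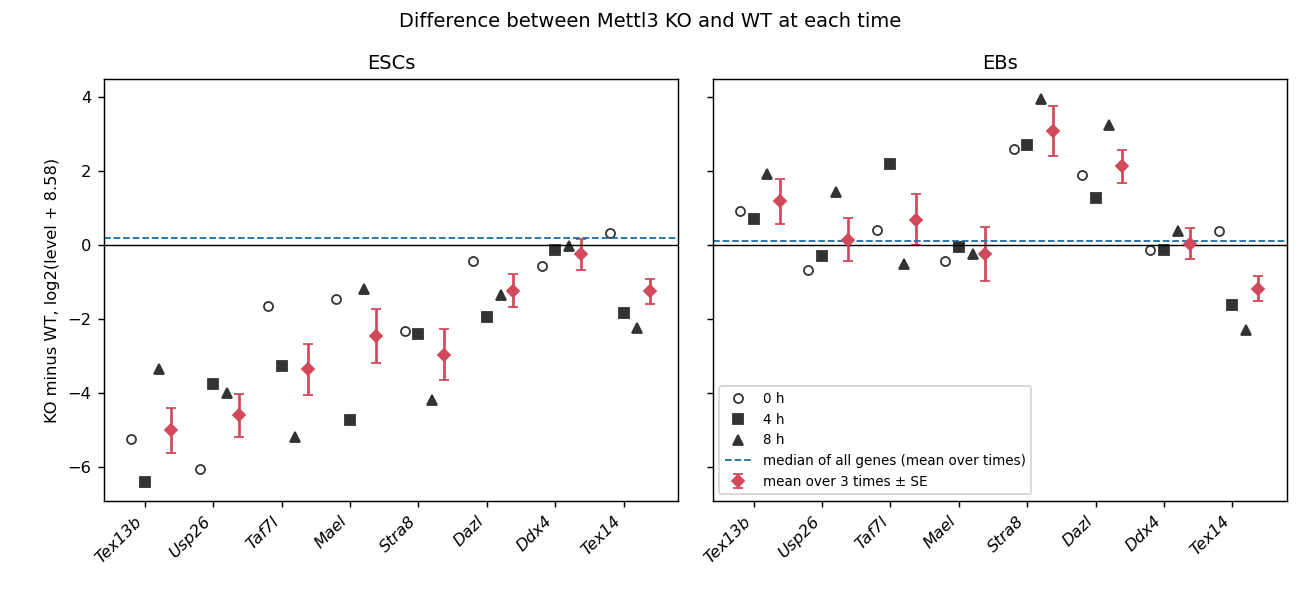
KO minus WT on the scale of log2(level + 8.58) for each gene at 0, 4 and 8 h (open circle, square, triangle), with the mean over times and its limma standard error as a diamond; the dashed line is the median of all 12704 tested genes. In ESCs 8 of 8 means are negative, from -5.01 for Tex13b to -0.26 for Ddx4, and in EBs 6 are positive and 2 negative.

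As a group, the 8 genes had a median KO minus WT of -2.72 in ESCs (-1.56 at 0 h alone) and 0.41 in EBs, beside medians over all tested genes of 0.18 and 0.09. To see which of the low levels could be told from background, 1426 genes of families that should be silent here (odorant, pheromone and trace amine receptors, defensins and keratin-associated proteins) were read in the same libraries. Of these, 6.80% to 9.61% had a level above 0 in ESC libraries and 26.7% to 36.2% in EB libraries. Each of the 8 genes was above the 95th percentile of those families in all 3 WT ESC libraries. In KO ESCs, 3, 4 and 3 of the 8 were at or under it at 0, 4 and 8 h, among them Usp26 in each library. In EBs Stra8 was at or under it in each WT library and in no KO library, and Usp26 was under it in 2 libraries of WT and 2 of KO. Also at or under it were Taf7l in WT EBs at 4 h, Tex13b in WT EBs at 8 h and Mael in KO EBs at 0 h.

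The stretches of 250 bases before the transcription start in the RefSeq promoter table are shown for the 5 genes with the largest differences in ESCs. These were low together in KO ESCs. That start need not be the edge of the gene span given above. The whole Stra8 stretch lies inside its span, and the Taf7l stretch reaches slightly into its span. They come from RefSeq on GRCm38.p6, are written 5′ to 3′ on the strand of the gene, and capitals mark the motifs CACGTG (the E-box that MAX partners bind) and AGGTCA (the half-site of retinoic acid and other nuclear receptors).
Tex13b, chrX:140813434-140813683, minus strand: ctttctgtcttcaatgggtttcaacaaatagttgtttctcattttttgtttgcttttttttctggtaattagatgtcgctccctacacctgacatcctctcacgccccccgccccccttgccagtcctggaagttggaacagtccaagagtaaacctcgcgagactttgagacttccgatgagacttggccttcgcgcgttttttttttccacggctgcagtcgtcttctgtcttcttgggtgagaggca
Usp26, chrX:51801234-51801483, minus strand: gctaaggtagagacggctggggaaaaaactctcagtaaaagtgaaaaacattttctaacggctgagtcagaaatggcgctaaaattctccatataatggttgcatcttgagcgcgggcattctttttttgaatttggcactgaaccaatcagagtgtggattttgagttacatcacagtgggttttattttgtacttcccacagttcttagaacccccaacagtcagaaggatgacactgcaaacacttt
Taf7l, chrX:134476491-134476740, minus strand: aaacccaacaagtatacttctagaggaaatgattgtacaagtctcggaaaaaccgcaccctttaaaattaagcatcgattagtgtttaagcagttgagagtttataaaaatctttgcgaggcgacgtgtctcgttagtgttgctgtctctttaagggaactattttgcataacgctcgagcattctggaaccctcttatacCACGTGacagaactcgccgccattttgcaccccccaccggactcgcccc
Stra8, chr6:34920698-34920947, plus strand: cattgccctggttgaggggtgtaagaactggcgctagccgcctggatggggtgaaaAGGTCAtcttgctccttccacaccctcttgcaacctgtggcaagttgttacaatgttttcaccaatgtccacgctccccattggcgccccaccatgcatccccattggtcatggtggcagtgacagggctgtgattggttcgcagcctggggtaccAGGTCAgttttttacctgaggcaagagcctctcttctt
Mael, chr1:166238745-166238994, minus strand: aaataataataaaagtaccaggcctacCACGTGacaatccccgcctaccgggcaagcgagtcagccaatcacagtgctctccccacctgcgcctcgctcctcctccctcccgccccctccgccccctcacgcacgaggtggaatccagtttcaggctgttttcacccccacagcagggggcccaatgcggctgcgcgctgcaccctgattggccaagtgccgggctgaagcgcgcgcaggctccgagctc

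All 8 genes matched the RefSeq promoter table, and 3 motifs were searched on both strands in windows from 250 bases before to 50 after the start. For Stra8 and Ddx4 that start lies inside the gene span given above, and so does the whole window. Positions are counted from the start of the promoter table. CACGTG was in Mael (223 bases before the start), Taf7l (49 before) and Ddx4 (29 before), and in 7.15% of 32851 promoters. AGGTCA was in Stra8 alone among the 8, at 194 and 38 bases before the start, and in 16.3% of all promoters. GCGGGAA, a motif of E2F factors, was in Ddx4 and Tex14 and in 4.60% of all. Tex13b, Usp26 and Dazl held none of the 3 in this window. CpG pairs numbered 38 in Ddx4, 28 in Dazl, 24 in Mael, 20 in Tex14, 17 in Taf7l, 13 in Tex13b, 10 in Stra8 and 5 in Usp26, beside a median of 7 over all promoters. The promoters of Tex13b and Usp26, the genes with the most alike levels, thus differ in CpG number.

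The letters GGACT, the commonest core of m6A sites, were counted in the reference transcripts as a description of sequence and not of methylation. Tex13b had 5, Usp26 and Ddx4 4 each, Tex14 3, Dazl 2, Mael 1, and Stra8 and Taf7l none. Per kilobase this was 2.36 in Tex13b, 0.97 in Usp26 and 1.33 in Ddx4, against a median of 1.05 over 12600 tested genes with a transcript. Having no GGACT at all, as Stra8 and Taf7l, was the case for 8.37% of them. The genes with large differences in ESCs included both the highest and the lowest GGACT density among the 8. The part of m6A in their levels was not tested.

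Across the 12 libraries, the levels of Tex13b and Usp26 ran most alike (Pearson r = 0.87 on the log2 scale), followed by Stra8 and Dazl (0.78) and Mael and Tex13b (0.73), while Dazl and Ddx4 had the lowest value (-0.33). These points share scaling, depth and the choice of genes, so the values only describe them. Outside the 8, the levels most like Stra8 were those of Porcn, an enzyme of Wnt secretion (0.94), the retinol dehydrogenase family gene Rdh16 (0.89) and the zinc-finger homeobox gene Zfhx2 (0.88). Zfhx2 also came first for Dazl (0.82). For Tex13b they were Prelid2, Rab26 and Dalrd3 (0.94, 0.93 and 0.92), for Usp26 Gys1, Padi2 and Chchd10 (0.92, 0.91 and 0.91), for Taf7l Arhgap24, Acvrl1 and Kcnh5 (0.94, 0.89 and 0.89), for Mael Dhx57, Sync and Bend7 (0.89, 0.89 and 0.87) and for Ddx4 Celf2, Iqce and Rnft1 (0.89 each). None of these is among the germ-line genes that were listed.

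The 8 genes were not picked for how their levels differ between cell types or over time, and these were tested with limma and Benjamini-Hochberg adjustment over all 12704 genes. The tests use the same libraries by which the genes were chosen, so they are not independent of that choice. Between EBs and ESCs, as a mean of both genotypes, Dazl was higher in EBs by 0.94 ± 0.31 (adjusted p = 0.0239). The genotypes went opposite ways in this: the mean Dazl level was 319 in ESCs and 222 in EBs of WT cells, and 128 and 819 in those of KO cells, so the mean over genotypes rests on the KO EB levels for which Dazl was chosen. Tex14 was lower by -0.63 ± 0.23 (adjusted p = 0.0405). Usp26 passed the level filter only through its WT ESC libraries and is given no test here; its mean level was 478 in ESCs and 33.8 in EBs of WT cells, and 14.1 and 37.9 in those of KO cells. The other 5 did not pass, with Taf7l at 1.03 ± 0.48 and Ddx4 at -0.69 ± 0.30 the nearest (adjusted p = 0.0978 and 0.0749). Taf7l did pass with equal column totals (1.62, adjusted p = 0.0355), with median-ratio scaling (1.51, adjusted p = 0.0402) and without the 4 h library of WT EBs (1.36, adjusted p = 0.0346). Its genotypes also went opposite ways: the mean level was 158 in ESCs and 77.5 in EBs of WT cells. In KO cells it was 8.38 and 105, so the positive mean over genotypes rests on the low KO ESC levels for which Taf7l was chosen. Tex13b passed with a pseudocount of 4 ppm (-0.96, adjusted p = 0.00915) and without the 4 h library of KO ESCs (-1.21, adjusted p = 0.0114). It was lower in EBs only in WT cells, with a mean level of 790 in ESCs and 51.6 in EBs. In KO cells these were 23.5 and 111, so the mean over genotypes rests on the WT ESC levels for which Tex13b was chosen. Ddx4 passed without the 4 h library of WT ESCs (-0.83, adjusted p = 0.0355). Of all genes, 43.6% were called, 3.06% higher and 40.5% lower in EBs, with a median of -0.55, so a lower value in EBs is the common case with the deposited scaling. With equal column totals the Tex14 difference was 0.15 (adjusted p = 0.7) and its call did not hold, while Dazl kept its call under all 3 other scalings. Dazl lost it without a variance trend (adjusted p = 0.0765) and in 9 of the 12 fits that leave out 1 library, all but those without WT ESCs at 4 h, WT EBs at 0 h or WT EBs at 8 h. Tex14 lost its call in 11 of those 12 fits, all but the one without KO ESCs at 4 h.

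After actinomycin, Tex14 rose by 0.25 ± 0.04 per hour on the log2 scale as a mean over the 4 conditions (adjusted p = 0.000242), and this call held in every setting tried. It was one of 30 genes (0.236%) called higher, against 2723 (21.4%) called lower. Within conditions its slope was 0.42 ± 0.07 in WT ESCs (adjusted p = 0.00451, with 0.157% of genes called higher) and 0.41 ± 0.07 in WT EBs (adjusted p = 0.0013, 0.126%). In KO ESCs and KO EBs it was 0.10 ± 0.07 and 0.08 ± 0.07 (adjusted p = 0.686 and 0.983). The WT levels at 4 and 8 h that give the WT slopes also enter the KO minus WT levels by which Tex14 was chosen. Few genes had a called slope in KO cells: 0.0315% in ESCs and 0.0% in EBs by limma, where 978 genes of KO EBs had an unadjusted p under 0.05. The slope difference itself, KO minus WT, was -0.32 ± 0.10 in ESCs (adjusted p = 0.269) and -0.33 ± 0.10 in EBs (adjusted p = 0.106), so a difference between genotypes was not called, except in EBs with a filter of 20 ppm (adjusted p = 0.0498). Genes called for that difference made up 0.0394% in ESCs and 1.19% in EBs.

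A level that rises when transcription is blocked is relative to the other transcripts in a library, and for Tex14 the annotation matters. Its span on GRCm38 holds 7 genes annotated as snRNA (Rnu1a1, Gm22068, Rnu3b1, Gm23137, Rnu3b3, Rnu3b4 and Rnu3b2) and 2 lncRNA genes. Whether reads of these were counted to Tex14 is not known from the labels or the table. The levels most like Tex14 across libraries were those of Dmd (Pearson r = 0.89), of Rmrp, a non-coding RNA of a nuclear RNase (0.86), and of Tmem38b (0.85). The part of the snRNA genes in the Tex14 result was not tested.

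**Figure D3:**
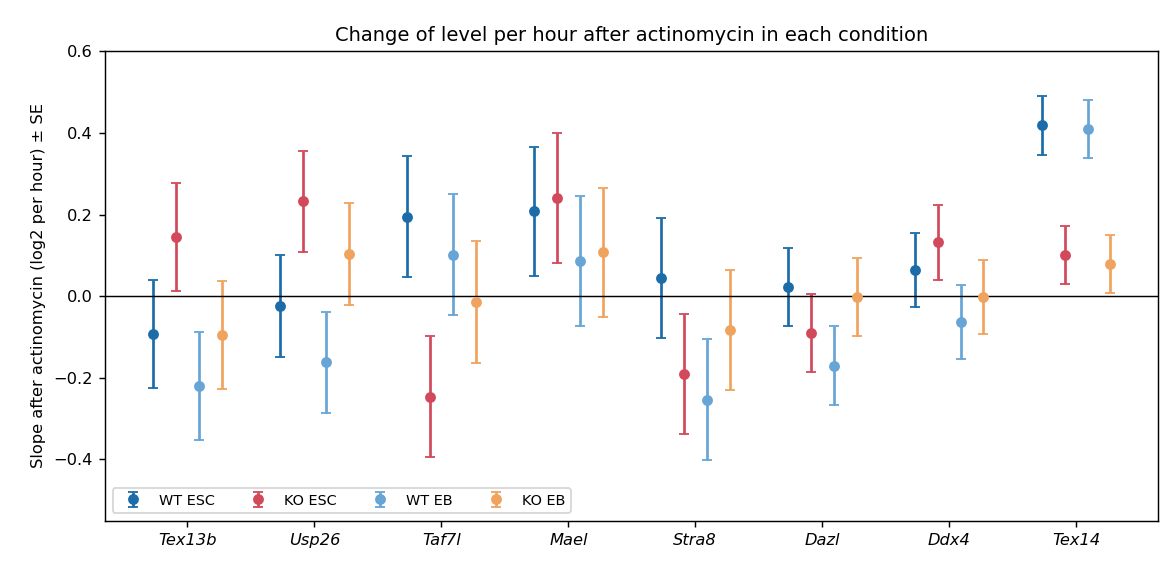
Slope of each gene's level per hour after actinomycin, on the log2(level + 8.58) scale, in each of the 4 conditions; points are limma estimates from 3 libraries a condition and bars are standard errors. Tex14 stands apart in WT ESCs and WT EBs, at 0.42 and 0.41 per hour.

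Of the other 7 genes, Usp26 passed the level filter only through its WT ESC libraries and is given no slope test. The remaining ones had no mean slope past the threshold. Farthest from 0 among them were Mael at 0.16 ± 0.08 and Stra8 at -0.12 ± 0.07 per hour (adjusted p = 0.172 and 0.283). Mael passed only without the 0 h or the 4 h library of KO ESCs (0.37 and 0.16 per hour), and Dazl only without WT EBs at 0 h (-0.16 per hour). None of those remaining genes passed in a single condition, or in the slope difference between genotypes. For Tex13b in WT ESCs the slope was -0.09 ± 0.13 per hour (adjusted p = 0.781). For Usp26 it was -0.02 ± 0.12 there, given as a description. For Stra8 and Dazl in KO EBs it was -0.08 ± 0.15 and -0.00 ± 0.10 (adjusted p = 0.999 for each). The KO minus WT level of Stra8 and Dazl in EBs was thus present at 0 h, 2.58 and 1.88, and at 8 h, 3.95 and 3.22, where WT EBs had their lowest values.

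Other germ-line genes did not follow the 8 as a block. Of 130 genes in 5 lists (piRNA pathway and nuage, meiosis, germ-cell specification, X-linked germ-line genes, spermatid and testis genes), 116 were in the table and 66 were tested. In ESCs 10 rose and 5 fell in KO, with a median of 0.00, and 51 did not pass. Among those called, Piwil1, Tktl1 and Prdm1 passed the level filter only through the ESC genotype in which they were high. In EBs 8 rose, none fell and 58 did not pass, with a median of 0.23, and under each of the 3 other scalings 6 or 7 rose and 1 fell. Over all genes 10.9% were called higher and 3.27% lower in ESCs, and 7.66% and 1.56% in EBs. Without the 0 h or the 8 h library of KO ESCs the ESC count was 5, and the EB count was 4 without the 0 h or 8 h library of KO EBs and 5 without the 0 h or 8 h library of WT EBs.

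Among the 13 tested piRNA genes, 2 rose (15.4%) and 1 fell (7.69%) in KO ESCs, beside 10.9% and 3.27% of all genes, and none was called in EBs. Tdrd7, a Tudor-domain gene, rose by 3.10 ± 0.65 (adjusted p = 0.00545) and Tdrd12 by 1.95 ± 0.34 (adjusted p = 0.00159). Piwil1, which encodes a PIWI protein that binds piRNAs, was lower by 2.34 ± 0.74 on the log2 scale. It passed the level filter only through its WT ESC libraries. Its call, which held in only 6 of 20 settings, is therefore given no weight. Of 26 meiosis genes, Hormad2 and Zcwpw1 fell in KO ESCs (-1.92 ± 0.51 and -1.84 ± 0.40, adjusted p = 0.0204 and 0.00662), or 7.69% beside 3.27% of all genes. Iho1 rose in both cell types, by 1.03 ± 0.31 in ESCs and 1.70 ± 0.31 in EBs (adjusted p = 0.0351 and 0.00231). The ESC call held in only 10 of 21 settings and the EB call in 18 of 21. Iho1 alone makes 3.85% called higher in each cell type, beside 10.9% and 7.66% of all genes. Ythdc2, a meiotic RNA helicase that reads m6A, did not pass in either cell type (adjusted p = 0.501 and 0.898).

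Of the 12 germ-cell specification genes, 3 rose (25%) and 1 fell (8.33%) in ESCs, beside 10.9% and 3.27% of all genes. In EBs 3 rose (25%), beside 7.66%. Tfap2c, a factor of primordial germ cells and of trophoblast, rose by 3.73 ± 0.37 in ESCs (adjusted p = 1.7e-05), where the summed trophoblast markers, of which it is one, were also higher in KO with it left out, and by 1.50 ± 0.37 in EBs (adjusted p = 0.0187). Dppa3 rose in ESCs by 2.32 ± 0.48 (adjusted p = 0.00503). Prdm1 was higher in KO ESCs by 2.82 ± 0.81. It passed the level filter only through its KO ESC libraries, so its call, which held in 9 of 20 settings, is given no weight. Sohlh2, a transcription factor of spermatogonia and oocytes, had the shape of Stra8 and Dazl. It was at 555, 523 and 395 in WT ESCs, 94.0, 252 and 248 in KO ESCs, 282, 108 and 39.0 in WT EBs and 671, 560 and 339 in KO EBs. It fell by 1.38 ± 0.33 on the log2 scale in KO ESCs (adjusted p = 0.0123) and rose by 2.12 ± 0.33 in KO EBs (adjusted p = 0.000751), and the genotypes did not overlap in either.

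Germ-line genes on the X were called in both directions in KO ESCs. Of 6 that were tested, the homeobox genes Rhox6 and Rhox9 rose in KO ESCs by 3.29 ± 0.41 and 3.44 ± 0.75 (adjusted p = 0.000125 and 0.00693). Fthl17a rose by 2.06 ± 0.65 (adjusted p = 0.048, held in 3 of 20 settings). Tktl1 was lower by 2.40 ± 0.63 on the log2 scale. It passed the level filter only through its WT ESC libraries, so its call is given no weight. Of all 424 tested X-linked genes besides the members, 35 rose (8.25%) and 34 fell (8.02%) in ESCs, beside 10.9% and 3.27% of all tested genes, with a median of -0.11 beside 0.18. In EBs 59 rose (13.9%) and 5 fell (1.18%), beside 7.66% and 1.56%, with a median of 0.35 beside 0.09. Xist was at 41.2 to 174 in all libraries. Summed levels of 9 Y-linked genes were 166 to 742 in WT ESCs, 659 to 1025 in KO ESCs, 555 to 786 in the EBs of WT cells and 489 to 783 in those of KO cells, so the genotypes overlapped in both cell types. Kdm5d and Eif2s3y were at 0 in all 3 WT ESC libraries but not in all 3 of any other condition. The part of X and Y linkage in the levels of Tex13b, Usp26 and Taf7l was not tested.

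Of 10 tested spermatid and testis genes, 4 rose in KO EBs (40%, beside 7.66% of all genes). Adam2, a sperm surface protein gene, rose by 1.83 ± 0.26 (adjusted p = 0.00039), and the tubulin genes Tuba3a and Tuba3b, a near-identical pair whose reads are hard to divide, by 2.67 ± 0.39 and 1.87 ± 0.39 (adjusted p = 0.000426 and 0.00614). Rpl10l rose by 3.62 ± 0.30 in EBs and by 1.32 ± 0.30 in ESCs (adjusted p = 4.3e-06 and 0.00959), but it is a retrocopy of Rpl10 whose reads could be shared with it.

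**Figure D4:**
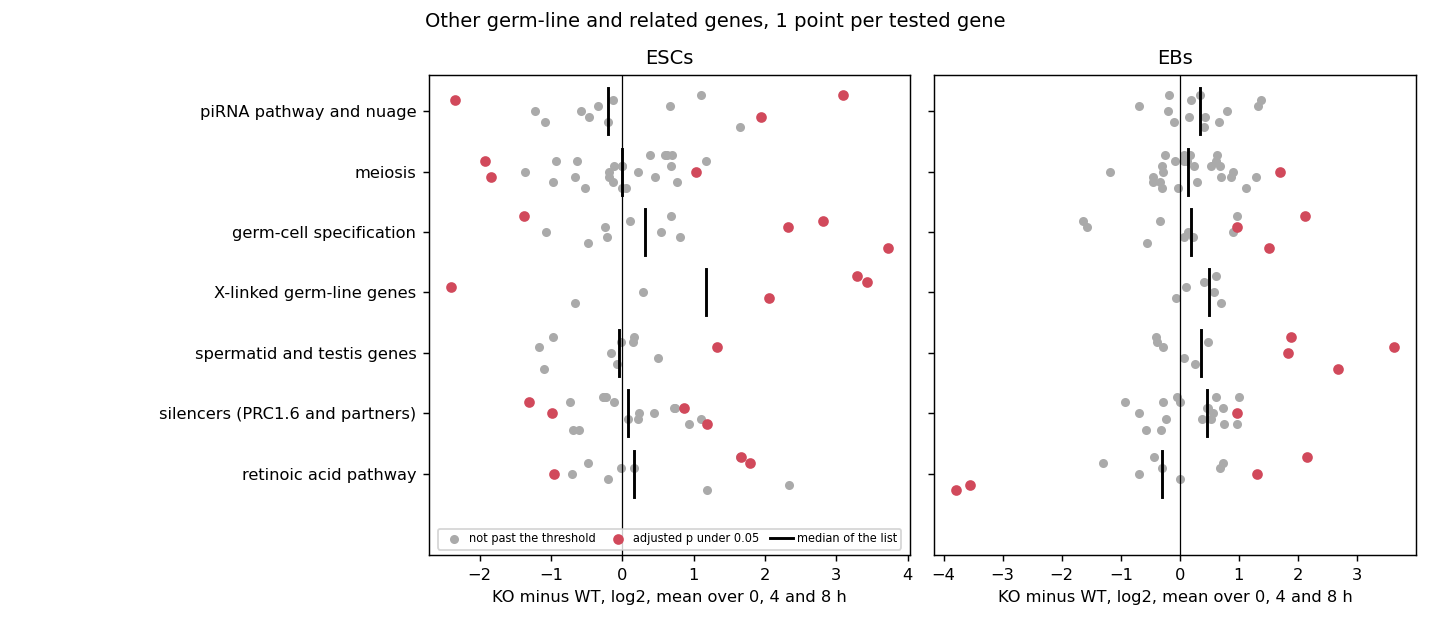
KO minus WT (log2, mean over 0, 4 and 8 h) of each tested gene of 5 germ-line lists, of the silencers of germ-line genes and of the retinoic acid pathway; red points have a limma adjusted p under 0.05 and black bars are list medians. In both cell types most points are grey, 51 of 66 germ-line genes in ESCs and 58 in EBs.

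Of 19 tested genes for silencers of the germ line, which include PRC1.6, 2 rose (10.5%) and 2 fell (10.5%) in KO ESCs, beside 10.9% and 3.27% of all genes, and 1 rose (5.26%) in EBs, beside 7.66%. Rybp, a subunit of PRC1.6 and of related Polycomb complexes, rose in ESCs by 0.86 ± 0.27 (adjusted p = 0.0462, held in 7 of 21 settings). Mga, Max, E2f6, L3mbtl2 and Pcgf6, of the same complex, did not pass there, at 1.10, 0.44, 0.73, 0.21 and -0.11 (adjusted p from 0.0693 to 0.9). Hdac2 fell by 1.30 ± 0.26 on the log2 scale (adjusted p = 0.00352), and Setdb1, a histone methyltransferase, rose by 1.18 ± 0.30 (adjusted p = 0.0151). Wdr5, which encodes a WD-repeat protein of PRC1.6 and of histone methyltransferase complexes, fell in KO ESCs (-0.98 ± 0.22, adjusted p = 0.00853) and rose in KO EBs (0.97 ± 0.22, adjusted p = 0.0118).

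Of 11 tested genes of the retinoic acid pathway, through which Stra8 is induced, 2 rose (18.2%) and 1 fell (9.09%) in KO ESCs, beside 10.9% and 3.27% of all genes. In KO EBs 2 rose (18.2%) and 2 fell (18.2%), beside 7.66% and 1.56%. Rarg, a retinoic acid receptor gene, was at 1473, 763 and 595 in WT ESCs, 500, 376 and 467 in KO ESCs, 756, 327 and 90.1 in WT EBs and 1087, 564 and 601 in KO EBs. It fell in KO ESCs (-0.96 ± 0.29, adjusted p = 0.0348) and rose in KO EBs (1.31 ± 0.29, adjusted p = 0.00865), the directions that Stra8 had, though its EB libraries overlapped. These calls held in 11 and 14 of 21 settings. Rara rose in KO ESCs by 1.79 ± 0.37 (adjusted p = 0.00498) and Rxra by 1.67 ± 0.47 (adjusted p = 0.0281). In EBs Rxra rose by 2.16 ± 0.47 (adjusted p = 0.00865). The retinoic acid hydroxylase gene Cyp26a1 and the retinol carrier gene Rbp4 were lower in KO EBs (log2 -3.56 ± 0.94 and -3.79 ± 0.73). They are the 2 genes that fell, and both passed the level filter only through their WT EB libraries. Their calls are therefore given no weight. Rbp4 is also made by visceral endoderm, and the summed endoderm markers were lower in KO EBs. A link between these levels was not tested.

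Of 15 tested partners and relatives of DAZL, DDX4, TAF7L and TEX14, Ddx3y rose in KO ESCs and Kif23 rose in KO EBs. Each makes 6.67% of the list called higher, below the 10.9% of all genes in ESCs and 7.66% in EBs. Kif23, a kinesin gene of the cytokinetic bridge, rose in KO EBs by 1.06 ± 0.29 (adjusted p = 0.0279). The Kif23 call held in only 11 of 21 settings. It was lost with equal column totals, median-ratio scaling or ribosomal protein scaling, and also without a variance trend or with shared time terms. Dazap1, whose protein binds DAZL, did not pass in ESCs or EBs (adjusted p = 0.309 and 0.143).

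Levels of cell type markers differed with genotype beside these genes. In bulk RNA, fewer cells of a type and less RNA per cell cannot be told apart. The sum of 12 endoderm markers ran from 9997 to 13970 in WT EBs, against 493 to 682 in KO EBs. Summed levels of 10 pluripotency markers were 49008 to 64211 in WT ESCs and 35004 to 43076 in KO ESCs. In EBs they were 6937 to 31514 in WT and 21466 to 30381 in KO. By gene, 3 of the 10 rose (30%) and 1 fell (10%) in KO ESCs, with a median of 0.36. In KO EBs 6 rose (60%) and none fell, with a median of 1.54. The shares over all genes were 10.9% and 3.27% in ESCs and 7.66% and 1.56% in EBs. Summed levels of 11 trophoblast markers were 322 to 608 in WT ESCs and 3077 to 4300 in KO ESCs. In EBs these were 3198 to 5483 in WT and 1583 to 2878 in KO. The trophoblast sums were thus higher in KO among ESCs and lower in KO among EBs, although 2 of the 8 tested markers rose and 1 fell in KO EBs, with a median of 0.45. Most of the WT EB sum was from 2 keratin genes, so its fall does not stand for the list. Krt8 was at 2943, 3075 and 2143 in WT EBs and 829, 1053 and 619 in KO EBs. Krt18 was at 1677, 1505 and 732 in WT EBs and 505, 510 and 286 in KO EBs. Without Tfap2c the trophoblast sums came to 291 to 416 in WT ESCs, 2671 to 2762 in KO ESCs, 3147 to 5014 for EBs of WT cells and 1402 to 2003 for EBs of KO cells. Of the somatic gonad, 13 markers summed to 474 to 1213 in any library, Cyp17a1 was at 0 in all 12, Amh and Nr5a1 were at 0 in ESCs, and of 6 tested none was called in either cell type. Of 8 markers of 2-cell-like cells in the table none passed the filter on low levels, and their sum was 24.3 to 293. The part of these shifts in the levels of the 8 genes was not tested.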

How the data were processed

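RNA 3′ ends were read in 12 mouse libraries, grouped by the sample titles, with 1 library a group. The authors deposited 1 table of normalized signal per RefSeq transcript, never below 0, and all 12 columns matched a title. Bowtie, Bowtie2 2.1.0, CASAVA 1.8.2 and the mm10 build stand in the submitters' processing notes. The counting and the scaling are not given in the sources used here. Of 19746 entries, 19535 matched RefSeq symbols, 98 more GENCODE symbols and 113 none, and 38 identical duplicates were dropped, leaving 19708. At least 99.8% of low values were multiples of a library-specific step within 0.1 of a step. Taking 50 steps as 1 read is an inference. No molecular identifiers were used, so 95% Poisson intervals and the floor of 3 reads cover counting error only.

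Differences were fitted on log2(level + 8.58), 1 ppm of the mean column total, with limma 3.58.1 in R 4.3.3, as a line over hours in each of 4 conditions (8 coefficients, 4 residual and 11.1 prior degrees of freedom). Genes whose mean level reached 42.9 (5 ppm) were tested, with a Benjamini-Hochberg threshold of 0.05, and the fit was tested on simulated data. Level differences are means over 0, 4 and 8 h. Alternatives were other pseudocounts, filters, scalings and variance priors, shared time terms, 0 h alone, and leaving out each library. The members and gene lists were chosen with earlier results of these data known, and the silent families after the data were seen. Of the retinoic acid list, 1 gene is not reported here. Besides the members, up to 4 called genes a list with the largest difference are named, with partners and paralogs of the members and, for each member, the 3 tested genes with the highest Pearson r.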

Additional observations from a re-analysis of the deposited data

Results flagged for a closer look

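Some genes differed between KO and WT one way in ESCs at all 3 times and the opposite way in EBs at all 3 times. Among the 8 genes these were Stra8, with a KO minus WT difference in EBs minus that in ESCs of 6.05 on the log2 scale, Tex13b with 6.19 and Dazl with 3.36. Among the other germ-line genes named, Sohlh2 differed in the same direction by 3.50, Tuba3a by 3.77, Tuba3b by 2.85 and Adam2 by 1.99. Dppa3 differed in the opposite direction, by -3.89, being higher in KO ESCs and lower in KO EBs. In each case the difference was not tested, and for the 8 genes the values that enter it were used to choose them.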

How the results depend on the processing

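No paired analysis by replicate number was possible because each group has 1 library and the labels carry no such numbers; the fit with shared time terms matches the genotypes by hour. The 8 genes had a KO minus WT value of the same sign in all settings for Stra8, Taf7l, Tex13b and Dazl in both cell types and for Mael and Usp26 in ESCs. Tex14 reversed with 0 h alone, to 0.30 in ESCs and 0.36 in EBs, and its EB minus ESC difference reversed with equal column totals (0.15) and median-ratio scaling (0.032). Of 36 calls of named list genes, 6 held in every setting: Tfap2c and Rhox6 in ESCs, and Sohlh2, Rpl10l, Adam2 and Tuba3a in EBs. The 36 include Piwil1, Tktl1, Prdm1, Cyp26a1 and Rbp4, which passed the level filter only through the condition where they were high. Of the 23 ESC calls, 18 were lost without the 0 h or the 8 h library of KO ESCs and 12 without either of WT ESCs. Of the 13 EB calls, 8 were lost without the 0 h library of KO EBs, 9 without the 8 h one, and 8 without either of WT EBs. Such a fit has 2 libraries left for that condition's line. The 15 list calls in ESCs became 9 with a 20 ppm filter, and the 8 in EBs became 5 without a variance trend. Over all genes, the 1797 ESC calls (1381 higher, 416 lower) became 1047 without a variance trend, 1142 with shared time terms and 717 to 1794 when 1 library was left out, and the split was 1049 to 670 with median-ratio scaling. The 1171 EB calls (973 higher, 198 lower) became 353 and 503 likewise, and 251 to 1248 with a library left out. The EB split was 635 to 359 with equal totals, 656 to 271 with median-ratio and 444 to 456 with ribosomal protein scaling, with a median over all genes of -0.14, -0.09 and -0.26. The 5538 calls between cell types became 2099 (1479 higher, 620 lower), 2001 (1113, 888) and 2052 (894, 1158) under those scalings, and 3666 to 5622 with a library left out. The 2753 mean slope calls became 1346 with equal totals, 1059 with median-ratio scaling, 1636 without a variance trend, 1807 with shared time terms and 919 to 3040 with a library left out. The 5 slope differences in ESCs became 0 with a pseudocount of 0.25 ppm, no filter, median-ratio or ribosomal protein scaling or no variance trend, 1 with 4 ppm or equal totals, 59 with a 20 ppm filter and 0 to 10 with a library left out. The 151 in EBs became 4 without a filter, 701 with 20 ppm, 0 with equal totals, median-ratio scaling or no variance trend, 5 with ribosomal protein scaling and 0 to 443 with a library left out. Slope differences cannot be fitted with shared time terms. The cause of these shifts was not tested. Depth limits the low levels: in KO ESCs a member at 0 may still have up to 3 reads.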
